A study of Mus musculus with 18 samples.

Results

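Meis1, Meis2, En1, En2, Tbx15, Prrx1, Prrx2, Msx1 and Msx2 are transcription factor genes outside the Hox clusters that pattern the embryo. All probes that the platform annotation maps to these 9 genes were read, which gave 21 of the 45121 probes on the array, and the array names 19030 genes in all. En2 and Msx1 were selected on their higher signal in cells without JNK1 and JNK2, so the genotype values of En2 and Msx1 are described here and not tested. No probe was annotated to Prrx2. Of the 21 probes, 16 probes of 7 genes were detected on at least 2 of the 18 arrays, and 14 of these, of 5 genes, were open to a test of genotype.

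The arrays held total RNA of mouse embryonic fibroblasts grown on culture inserts, either alone or sharing the medium of human skin keratinocytes that were differentiating. KO cells carried jnk1-/-jnk2-/-, the loss of both kinases, and wildtype cells carried neither deletion. Both came from embryos at the E10.0 stage on a BL6/129/Sv background, were immortalised by the 3T3 protocol and grew in the same FAD medium, which contains serum, insulin, hydrocortisone, cholera toxin and EGF. In each genotype there was 1 array from before co-culture (day 0), and there were 2 arrays at day 2, 2 at day 4 and 4 at day 6. The inserts were exchanged every second day, so each later day had its own fibroblasts. RNA from 1 insert or a pool of 2 or 3 went onto each array. The labels name no separate embryos, lines or clones within a genotype, so the p-values measure only the spread between arrays, and a property of the line cannot be told apart from the deletion. In such bulk RNA, fewer cells that express a gene and less RNA per cell cannot be told apart.

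Engrailed proteins (En1, En2) are homeodomain repressors known for setting up the midbrain-hindbrain boundary, and En1 also marks the ventral limb ectoderm and a lineage of dorsal dermal fibroblasts. Meis1 and Meis2 are TALE homeodomain proteins that bind DNA with Pbx and Hox partners and mark the proximal limb. Tbx15 and the paired-related factors Prrx1 and Prrx2 act in limb, skull and dermal mesenchyme. Msx1 and Msx2 are homeodomain repressors downstream of BMP signals. Fibroblasts in culture retain part of the positional code of their site of origin, which is why such genes are read as a record of position.

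The arrays had mean bead intensities of 392 to 653 and detected 37.3% to 45.8% of probes. Replicates 2, 3 and 4 of day 6 in both genotypes had the highest intensities, from 581 to 653 against 392 to 482 on the other arrays, and their detection p-values were deposited in another form. They are called the second processing set and the other 12 arrays the first. Mapk9, which encodes JNK2, had a signal of 4.51 to 5.6 on KO arrays and 10.07 to 10.49 on wildtype arrays at probe ILMN_2591066. The brightest probe of Mapk8, which encodes JNK1, gave 5.71 to 6.36 on KO arrays and 5.44 to 6.47 on wildtype arrays, and whether it lies in the deleted part is not given in the sources used here. All 13 fibroblast markers passed the detection filter. Over the mean of days 2, 4 and 6, 3 were higher and 7 lower in KO cells. Of all named genes, 22.2% were higher and 20.7% lower. Here and below a signal is a background-corrected, quantile-normalized log2 intensity, a difference is a log2 difference of such signals with its standard error, and values close to 4 are at background.

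RefSeq promoter windows of 300 bases on GRCm38.p6 were at hand for 7 of the 9 genes. Those of En1, Msx1 and Meis1 are shown because these are the members with the clearest genotype difference for which a window was given. JNK phosphorylates Jun, a subunit of AP-1, so each window was searched on both strands for the AP-1 site TGANTCA, the cyclic AMP response element TGACGTCA, the CCAAT box CCAAT and the E-box CACGTG. Capitals mark AP-1 sites and CCAAT boxes on either strand. The En1 window is chr1:120602237-120602536 on the plus strand and the Msx1 window chr5:37824536-37824835 on the minus strand, each with 250 bases before the annotated gene start and 50 from it. The Meis1 window is chr11:19018920-19019219 on the minus strand and lies inside the annotated gene span.
En1: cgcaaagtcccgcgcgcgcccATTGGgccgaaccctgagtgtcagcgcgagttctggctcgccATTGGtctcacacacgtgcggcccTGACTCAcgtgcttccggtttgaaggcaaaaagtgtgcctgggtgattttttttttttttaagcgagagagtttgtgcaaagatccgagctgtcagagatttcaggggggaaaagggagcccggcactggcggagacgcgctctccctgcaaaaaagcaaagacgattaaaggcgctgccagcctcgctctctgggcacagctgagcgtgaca
Msx1: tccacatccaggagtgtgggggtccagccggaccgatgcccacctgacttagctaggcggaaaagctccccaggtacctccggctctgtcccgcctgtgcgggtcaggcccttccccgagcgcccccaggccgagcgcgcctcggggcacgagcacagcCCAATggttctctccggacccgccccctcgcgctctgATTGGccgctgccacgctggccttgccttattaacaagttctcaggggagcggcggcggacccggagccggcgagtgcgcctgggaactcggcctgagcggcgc
Meis1: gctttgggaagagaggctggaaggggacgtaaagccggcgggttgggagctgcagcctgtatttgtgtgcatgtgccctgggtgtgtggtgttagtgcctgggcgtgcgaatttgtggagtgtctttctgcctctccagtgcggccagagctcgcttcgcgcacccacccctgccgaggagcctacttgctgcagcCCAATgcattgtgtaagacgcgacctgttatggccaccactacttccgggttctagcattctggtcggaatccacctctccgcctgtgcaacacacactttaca
En1 held the only AP-1 site among the 7 windows, and it overlaps 1 of 2 E-boxes there. Of all 32851 promoter windows in the RefSeq table, 7.81% held an AP-1 site and 7.15% an E-box. CCAAT boxes were in 5 of the 7 windows, against 37.4% of all windows. The cyclic AMP response element, found in 1.79% of all windows, was in none of the 7, which says only that these letters are not in these windows. A match is a string of letters and not a measured binding site.

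En1 was about 4-fold higher in KO cells on every day, with both of its probes. At probe ILMN_2776047 the KO signal was 10.53 at day 0, 11.31 and 11.13 at day 2, 11.28 and 11.10 at day 4, and 11.22, 11.84, 11.82 and 11.47 at day 6. The wildtype signal was 8.68 at day 0, 9.24 and 9.13 at day 2, 9.17 and 9.34 at day 4, and 9.30, 9.47, 9.48 and 9.97 at day 6. Every KO array lay above every wildtype array, as was the case for 5.72% of all probes tested, and En1 was detected on all 18 arrays. The difference was 2.03 ± 0.21 at day 2 (adjusted p = 6.72e-07), 1.93 ± 0.21 at day 4 (adjusted p = 1.39e-06) and 2.04 ± 0.15 at day 6 (adjusted p = 2.21e-09). The second En1 probe, ILMN_3163581, ran from 8.21 to 9.39 on KO arrays and from 6.38 to 7.33 on wildtype arrays, again without overlap. Its mean difference over days 2, 4 and 6 was 1.98 ± 0.12 (adjusted p = 3.48e-11), and that of the first probe was 2.00 ± 0.11 (adjusted p = 1.45e-11). Day 0, with 1 array per genotype and no test, had differences of 1.86 and 1.83 before any keratinocyte was present.

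**Figure D1:**
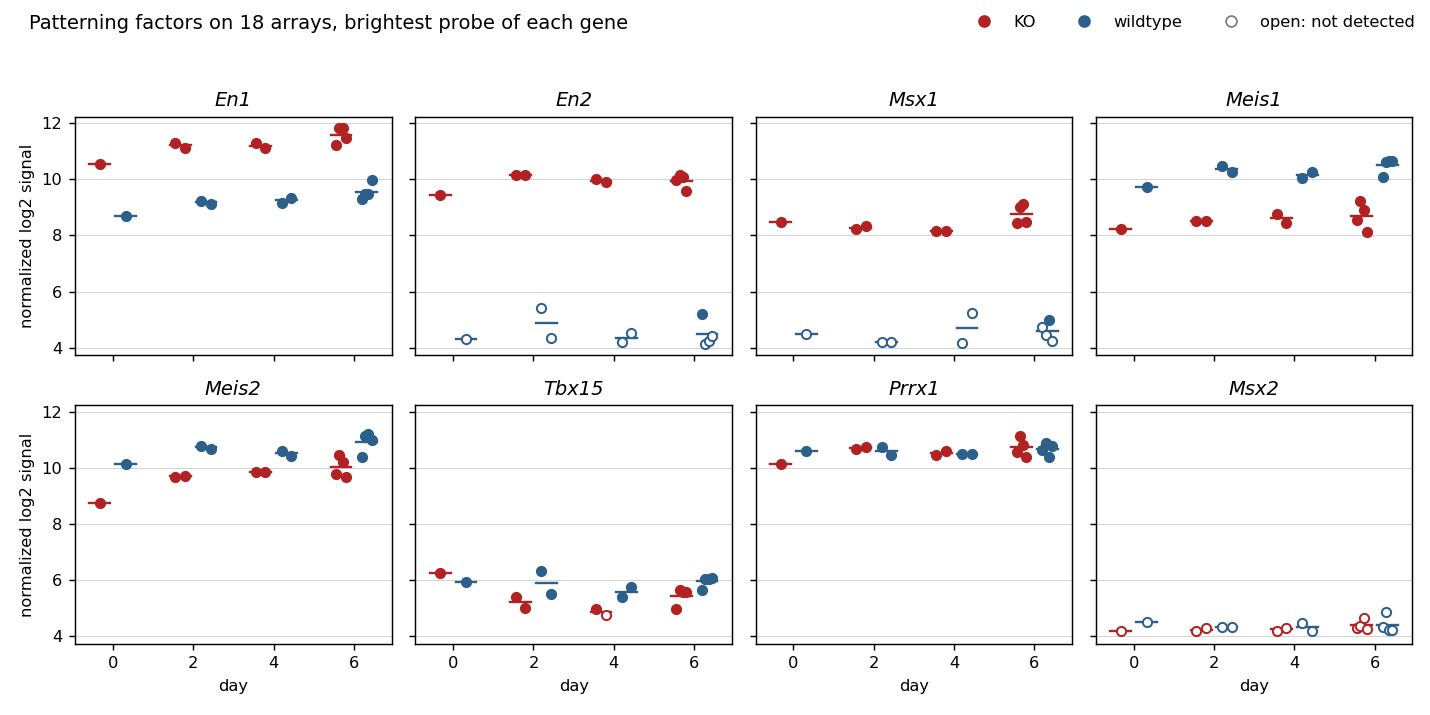
Normalized log2 signal (vertical axis) against day (horizontal axis) for the brightest probe of each gene on 18 arrays, with KO arrays left of wildtype arrays and a bar at each group mean. Open circles are arrays on which the probe was not detected, En1, En2 and Msx1 KO arrays lie above all wildtype arrays, and Meis1 KO arrays lie below them.

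En2, the paralogue of En1, was chosen for its high level in KO cells. Its single probe, ILMN_2726471, gave KO signals of 9.45 at day 0, 10.15 and 10.17 at day 2, 10.02 and 9.90 at day 4, and 9.97, 10.14, 10.07 and 9.60 at day 6. In wildtype cells the signal was 4.32 at day 0, 5.40 and 4.35 at day 2, 4.19 and 4.51 at day 4, and 5.19, 4.12, 4.22 and 4.40 at day 6. It was detected on all 9 KO arrays and on 1 wildtype array, replicate 1 of day 6. KO was at least 27-fold higher at day 0, 34.2-fold at day 2 and 38.4-fold at day 4, lower bounds computed against the lowest signal counted as detected. At day 6 the KO mean was 9.95 ± 0.24 and the wildtype mean 4.48 ± 0.49 (SD, n = 4 each), a difference of 5.46 ± 0.24. The KO level kept to a range of 9.45 to 10.17 over all days.

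Msx1 was chosen in the same way. At probe ILMN_1246173 the KO signal was 8.49 at day 0, 8.22 and 8.34 at day 2, 8.16 and 8.15 at day 4, and 8.45, 9.0, 9.11 and 8.48 at day 6. Wildtype signals were 4.49 at day 0, 4.19 and 4.20 at day 2, 4.17 and 5.24 at day 4, and 4.74, 4.44, 4.99 and 4.25 at day 6. All 9 KO arrays and 1 wildtype array, replicate 3 of day 6, detected the probe. KO was at least 13.9-fold higher at day 0, 12-fold at day 2 and 8.96-fold at day 4, and the difference at day 6 was 4.15 ± 0.24, with a KO mean of 8.76 ± 0.34 and a wildtype mean of 4.60 ± 0.33 (SD, n = 4 each). The other Msx1 probe, ILMN_1215278, was detected on no KO array and 1 wildtype array. Msx2, its paralogue, was detected on none of the 18 arrays with its only probe, whose signal was 4.17 to 4.65 in KO cells and 4.17 to 4.85 in wildtype cells.

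En2 and Msx1 both lie on chromosome 5 of GRCm38.p6, En2 at chr5:28165696-28172190 and Msx1 at chr5:37820491-37824585, so their nearest neighbours with a probe were read too. Over the mean of days 2, 4 and 6, none of the 4 En2 neighbours past the detection filter passed the threshold. Of all probes, 36.6% did. Paxip1 (detected on 2 KO arrays and 1 wildtype array) and Rnf32 (3 KO arrays and no wildtype array) were near background. Only Insig1 and Rbm33 were detected on every array. Insig1, a brake on sterol synthesis, differed by 0.41 ± 0.16 (adjusted p = 0.0513), and Rbm33 by -0.01 ± 0.10. Shh, the ligand gene on the other side of Rbm33, was detected on no array. Of the 4 Msx1 neighbours past the filter, 2 passed the threshold. The nearest, Cytl1 and Stk32b, differed by 0.25 ± 0.16 (adjusted p = 0.270) and 0.38 ± 0.18 (adjusted p = 0.105). Both were near background, with Cytl1 detected on 1 array of each genotype and Stk32b on 5 KO arrays and 1 wildtype array. Farther out, the cilium gene Evc2 was lower in KO cells by -0.59 ± 0.09 (adjusted p = 1.20e-05) and the membrane traffic gene Stx18 was higher by 0.43 ± 0.10 (adjusted p = 0.0017). Nsg1 and Zbtb49 did not pass the filter.

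Meis1 was about 3-fold lower in KO cells. At probe ILMN_1218266 the KO signal was 8.22 at day 0, 8.52 and 8.51 at day 2, 8.77 and 8.46 at day 4, and 8.55, 9.22, 8.91 and 8.14 at day 6. Wildtype arrays gave 9.73 at day 0, 10.46 and 10.26 at day 2, 10.04 and 10.28 at day 4, and 10.07, 10.61, 10.65 and 10.66 at day 6. All KO arrays lay below all wildtype arrays, as did 5.96% of all probes tested. The difference was -1.85 ± 0.27 at day 2 (adjusted p = 3.58e-05), -1.54 ± 0.27 at day 4 (adjusted p = 2.69e-04) and -1.79 ± 0.19 at day 6 (adjusted p = 3.03e-07). Replicate 1 of day 6, in the first processing set, differed by -1.52, and the 3 replicates of the second set by -1.88. A dimmer Meis1 probe, ILMN_1248401, was detected on no KO array and on 7 wildtype arrays. It passed the filter only through wildtype arrays, so its difference is given as a bound without a p-value. KO was at least 1.54-fold lower at day 6, where 3 of 4 wildtype arrays detected it. Replicate 1 of day 6 was undetected in both genotypes. The counts over 14 probes below still include this probe, among the lower ones at day 6 and over the mean of days 2, 4 and 6. The third probe, ILMN_1218217, stayed near background in both genotypes and was not called.

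Meis2 was lower in KO cells by less than 1 log2 unit over the mean of days 2, 4 and 6. At probe ILMN_2850391 the KO signal was 8.75 at day 0, 9.69 and 9.72 at day 2, 9.85 and 9.87 at day 4, and 9.80, 10.45, 10.21 and 9.69 at day 6. Wildtype arrays gave 10.15 at day 0, 10.80 and 10.67 at day 2, 10.61 and 10.44 at day 4, and 10.40, 11.13, 11.20 and 10.98 at day 6. Within days 0, 2 and 4 each KO array lay below each wildtype array, while at day 6 KO replicate 2 lay above wildtype replicate 1. The difference was -1.03 ± 0.24 at day 2 (adjusted p = 0.00399), -0.67 ± 0.24 at day 4 (adjusted p = 0.0629) and -0.89 ± 0.17 at day 6 (adjusted p = 3.92e-04). Probe ILMN_2774121 differed by -1.01 ± 0.29 at day 2 (adjusted p = 0.0191), -0.83 ± 0.29 at day 4 (adjusted p = 0.0586) and -0.93 ± 0.21 at day 6 (adjusted p = 0.0018). With the processing set as a block, both probes passed the threshold at day 4 as well (adjusted p = 0.0131 for ILMN_2850391 and 0.0328 for ILMN_2774121). The day 2 call of ILMN_2774121 was lost without KO replicate 1 (-0.72) or either wildtype replicate (-1.03 and -0.99). At day 0 this probe was not detected in KO cells, which puts KO at least 4.12-fold lower there. Without background correction its mean difference over days 2, 4 and 6 was -0.53, against -0.92.

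Prrx1 and Tbx15 differed less. Prrx1 had 5 detected probes, and only ILMN_3057018 was called, with a mean difference over days 2, 4 and 6 of 0.52 ± 0.10 (adjusted p = 4.81e-04). Its signal was 9.16 to 9.76 on KO arrays and 8.71 to 9.37 on wildtype arrays, which overlap. The other 4 probes differed by -0.26 to 0.10 and were not called, among them the brightest, ILMN_2678094, at 0.06 ± 0.11. The probes of Prrx1 therefore disagree, and the one call was lost when arrays were scaled to the same median (0.33 ± 0.20). Tbx15, at probe ILMN_2687794, was lower by -0.64 ± 0.17 over the mean of days (adjusted p = 0.00548) but was not called on any single day, with differences of -0.70 at day 2, -0.72 at day 4 and -0.51 at day 6. It was a dim probe, at 4.75 to 6.26 on KO arrays and 5.41 to 6.32 on wildtype arrays, and the single day 0 arrays differed the other way, by 0.34. Its size depended on the background correction, with -0.19 in the deposited log2 matrix and -0.37 with an offset of 50, both past the threshold.

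Before any correction, the deposited intensities did not overlap between genotypes for En2 and Msx1, which were chosen for their higher signal in KO cells. En2 had 670 to 1588 intensity units on KO arrays and 102.6 to 160 on wildtype arrays, and Msx1 had 291 to 880 on KO arrays and 112 to 144 on wildtype arrays. The processing sets differ in overall intensity, so En1 and Meis1 are given within each. In the first set En1 at ILMN_2776047 had 1311 to 2102 units on KO arrays and 415 to 687 on wildtype arrays, and in the second 3742 to 4813 on KO arrays and 1178 to 1613 on wildtype arrays. Meis1 at ILMN_1218266 had 337 to 429 units on KO arrays and 769 to 1464 on wildtype arrays of the first set, and 487 to 902 on KO arrays and 2474 to 2507 on wildtype arrays of the second. Neither gene overlapped between genotypes within a set. The share of all probes without overlap was not computed for intensities or within a set. For normalized signals of all arrays it was 5.72% with KO above and 5.96% with KO below.

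Within the processing sets the day 6 differences kept their sign for the brightest probe of En1, Meis1, Meis2 and Tbx15. In the first set, with 1 array per genotype, KO minus wildtype was 1.92 for En1, -0.61 for Meis2 and -0.68 for Tbx15. In the second set, with 3 arrays per genotype, it was 2.07 for En1, -0.99 for Meis2 and -0.45 for Tbx15. Prrx1 varied most between the sets, with -1.46 in the first and 0.15 in the second at its dimmest detected probe, ILMN_3134079, and 0.59 and 0.49 at ILMN_3057018. The 5 member probes that did not pass the filter, 1 each of Meis2, Tbx15, Prrx1, Msx1 and Msx2, had signals of 4.13 to 4.99 on KO arrays and 4.12 to 5.10 on wildtype arrays. Another Meis2 probe, ILMN_1232525, passed the filter through 3 wildtype arrays, was detected on no KO array and was not called.

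**Figure D2:**
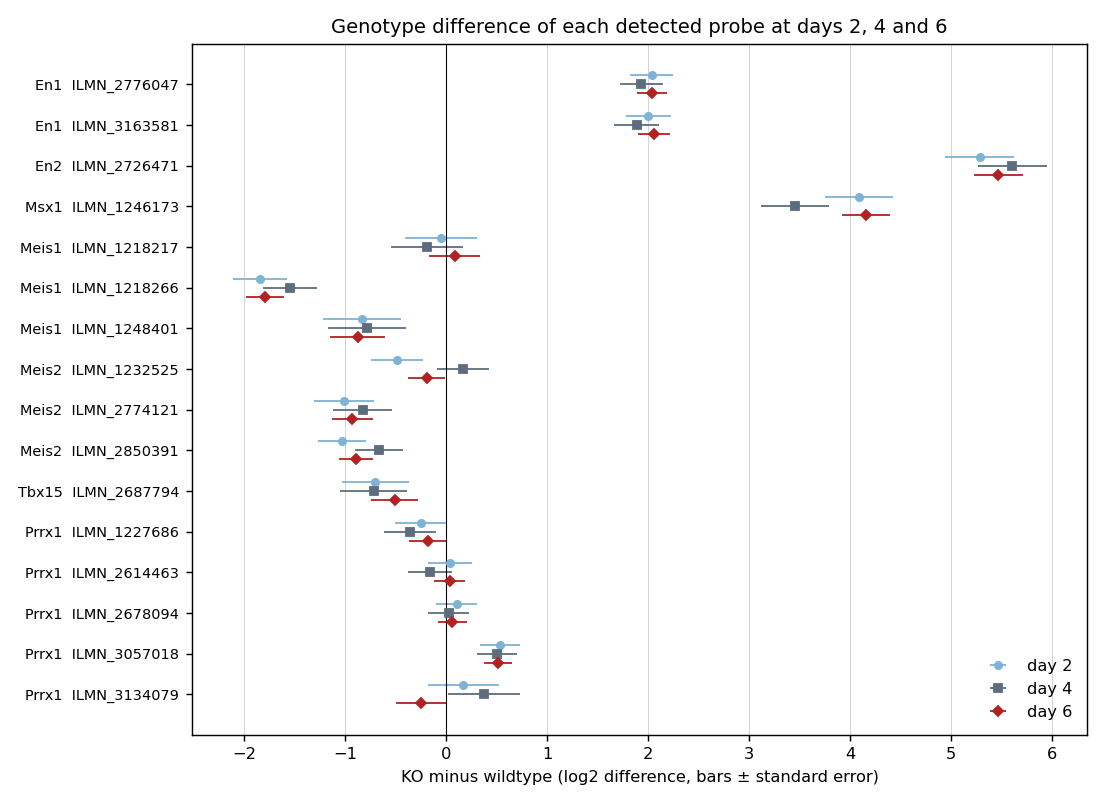
Log2 difference, KO minus wildtype (horizontal axis), for each of the 16 detected probes (vertical axis) at days 2, 4 and 6, with bars of 1 standard error from the limma fit. Both En1 probes sit near 2 on each day and Meis1 probe ILMN_1218266 between -1.85 and -1.54, while En2 and Msx1 were chosen for their difference.

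Counted over the 14 probes open to a test, 5 passed the threshold at day 2, where 18.7% of all 26407 probes did. Of these, 2 were higher in KO (9.47% of all probes) and 3 lower (9.18%). At day 4, 3 passed (17.7% of all), with 2 higher (9.02%) and 1 lower (8.66%). At day 6, 7 passed (26.8% of all), with 3 higher (13.9%) and 4 lower (12.9%). Over the mean of the days 8 passed (36.6% of all), with 3 higher (19.2%) and 5 lower (17.3%). The lower counts at day 6 and over the mean hold Meis1 probe ILMN_1248401. That probe and Meis2 probe ILMN_1232525, which was not called, passed the filter through wildtype arrays alone and were detected on no KO array. Over the 12 probes detected in both genotypes, 6 passed at day 6 (3 higher, 3 lower) and 3 at day 4 (2 higher, 1 lower). At day 2, 5 of the 12 passed (2 higher, 3 lower), and over the mean 7 did (3 higher, 4 lower), with a median of -0.04. No share of all probes detected in both genotypes was computed to set beside these counts. The counts include several probes of the same gene. With a gene counted through any called probe over the mean, 2 of 5 genes were higher (En1, Prrx1) and 3 lower (Meis1, Meis2, Tbx15). Prrx1 was counted through 1 of its 5 probes. At the brightest probe of each gene Prrx1 was not called, and the other calls stood. With 1 probe per gene, 22.2% of all named genes were higher and 20.7% lower. The median difference of the 14 probes over the mean of days was -0.11, beside 0.02 for all probes. With arrays scaled to the same median, 28.1% of the called probes of the whole array were higher in KO at day 2, 38.8% at day 4, 42.8% at day 6 and 38.0% over the mean, against 50.8%, 51.0%, 51.7% and 52.6% after quantile normalization. The directions of En1, Meis1 and Meis2 calls were the same under both scalings.

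No change of a member's genotype difference between days 2 and 6 passed the test. It called 0 of 14 probes (0% of all probes), with 0 at an unadjusted p under 0.05, and the change for En1 was 0.00 ± 0.26 and for Meis1 0.05 ± 0.33. For En2 it was 0.18 ± 0.42 and for Msx1 0.07 ± 0.41, given without a test.

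Across days, both bright Meis2 probes and 1 of 2 En1 probes were higher at day 2 than before co-culture. Over the mean of both genotypes 3 of 16 probes were called (background 9.61%), with 3 higher (5.02% of all probes) and 0 lower (4.59%). Meis2 rose by 1.05 ± 0.25 at ILMN_2774121 (adjusted p = 0.0125) and 0.77 ± 0.21 at ILMN_2850391 (adjusted p = 0.0239), and En1 by 0.60 ± 0.19 at ILMN_2776047 (adjusted p = 0.0467). The other En1 probe differed by 0.56 ± 0.19 (adjusted p = 0.0761). Meis2 probe ILMN_2774121 was not detected on the KO day 0 array, and its rise was 1.57 in KO cells and 0.54 in wildtype cells. Under the alternatives in processing its mean rise was as low as 0.44. Each day 0 group is 1 array, assumed here to vary like the other groups, and with arrays scaled to the same median none of the 3 calls held. Leaving out 1 day 2 array left between 0 and 1 call. Between day 4 and day 2 limma called 0 of 16 probes (0% of all probes; 0 at an unadjusted p under 0.05). Between day 6 and day 2 it called 0 of 16 (background 4.67%; 3 at an unadjusted p under 0.05), with 0.44 ± 0.21 for Msx1 and 0.37 ± 0.13 and 0.31 ± 0.14 for the 2 En1 probes. For En1 probe ILMN_2776047, day 6 replicate 1, of the same processing set as day 2, differed from the day 2 mean by 0.0021 in KO cells and 0.11 in wildtype cells. For the other En1 probe, ILMN_3163581, replicate 1 was 0.31 above the day 2 mean in KO cells and 0.30 in wildtype cells.

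**Figure D3:**
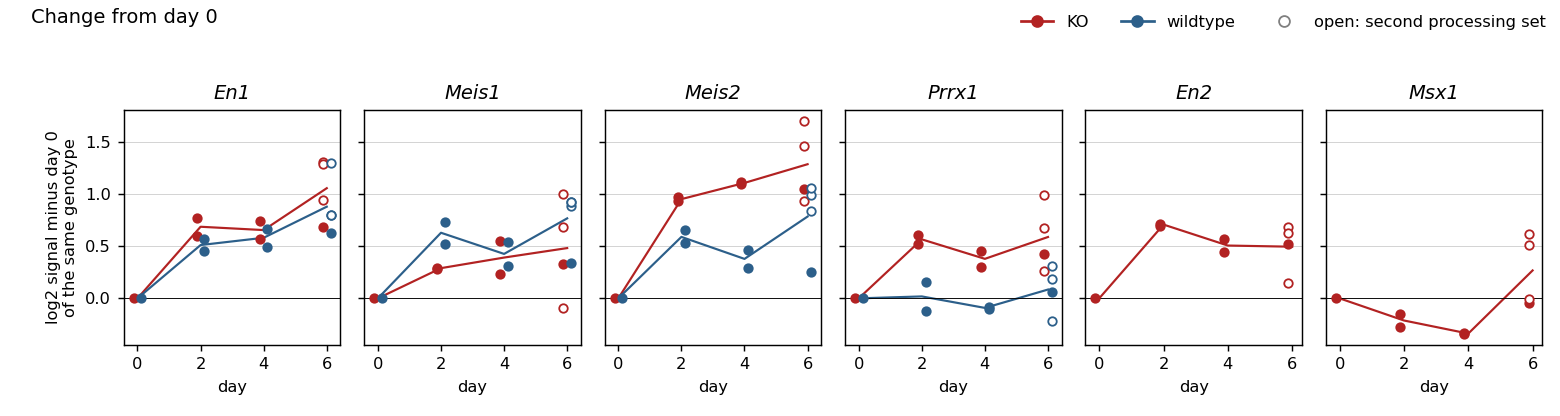
Signal minus the day 0 array of the same genotype (vertical axis, log2) against day for the brightest probes of 6 members, with lines through the group means and wildtype left out for En2 and Msx1, which were near background there. Open circles are arrays of the second processing set, and Meis2 at day 2 lies above its day 0 array in both genotypes.

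The list of other patterning genes was read with 1 probe per gene over the mean of days 2, 4 and 6, where 22.2% of 13106 genes were higher in KO and 20.7% lower, with a median of 0.02. The list of TALE cofactors holds other genes of the homeodomain class of Meis, not all of them Meis partners. Among the 8 detected, 1 was higher (Pknox1, 0.45 ± 0.13) and 3 were lower, namely Tgif1 (-0.98 ± 0.14), Pbx2 (-0.79 ± 0.17) and Pbx3 (-0.64 ± 0.19). The list median was 0.06. Of 6 detected T-box factors, Tbx3, a repressor that acts in limb and mammary development, was higher by 3.61 ± 0.19 (adjusted p = 3.62e-12). In wildtype cells Tbx3 was near background (4.20 to 5.45) and detected on 4 arrays, so the size of its difference is uncertain. Tbx2 was lower by -0.51 ± 0.18, but near background in both genotypes and detected on 1 KO array and 4 wildtype arrays.

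Of 10 detected limb and body-wall factors, 2 were higher and 3 lower. Alx4, a homeodomain factor of anterior limb and skull, had signals of 4.11 to 4.43 on KO arrays, all undetected, and 6.56 to 7.46 on wildtype arrays, at least 5.71-fold lower in KO. Gli2, a transcription factor of hedgehog signalling, was lower by -2.44 ± 0.15, and Gli3 higher by 0.33 ± 0.11. Of 10 craniofacial factors, 4 were higher and 3 lower. Foxf1 was at least 3.07-fold higher, and Foxc2 (-2.31 ± 0.17), Osr1 (-1.85 ± 0.22) and Osr2 (-1.59 ± 0.13) were lower. In KO cells Foxc2 was near background and detected on 2 arrays, so its size is uncertain. Foxc1, the paralogue of Foxc2, was higher by 1.31 ± 0.14, the opposite direction.

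Among 4 detected midbrain-hindbrain organiser genes, where engrailed genes act in the embryo, 1 was higher: Otx1, by 2.62 ± 0.16 (adjusted p = 3.80e-11). Pax5, Pax8 and Wnt1 were near background and not called, and Pax2, Otx2, Gbx2 and Fgf8 had no probe past the filter. Wnt7a and Cnpy1 had no annotated probe and were not measured. Of 8 detected BMP ligand and response genes, 3 were higher and 1 lower. Bmp4, a ligand upstream of Msx1 in many tissues, was detected on all 9 KO arrays (10.90 to 12.48) and no wildtype array (4.13 to 4.94), at least 187-fold higher in KO. The BMP targets Smad6 and Id1 were higher by 1.94 ± 0.18 and 1.23 ± 0.24, and the BMP antagonist Grem1 was lower by -2.31 ± 0.21.

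**Figure D4:**
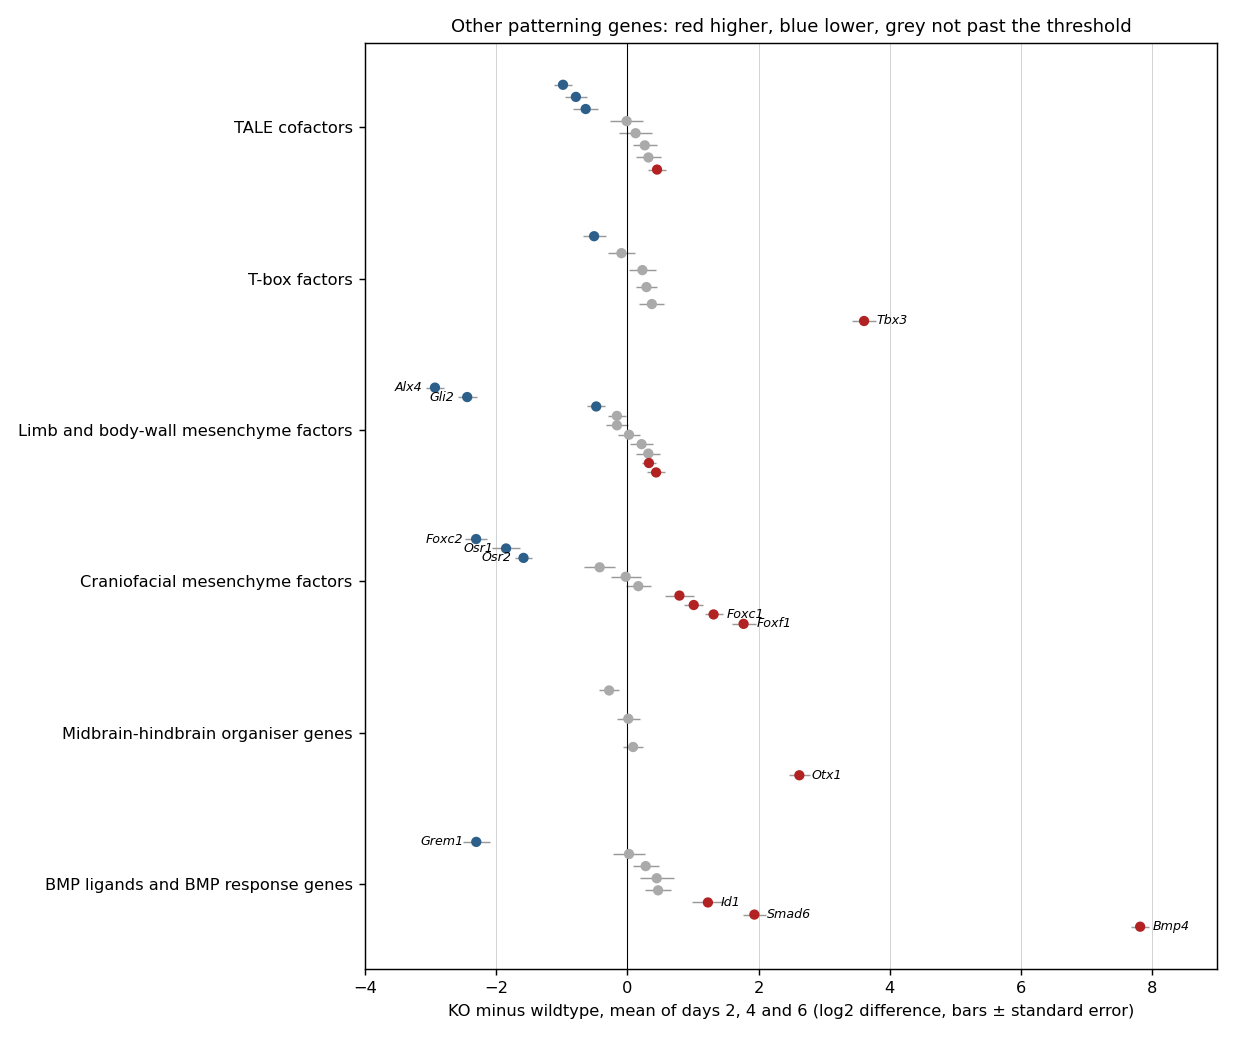
Log2 difference, KO minus wildtype, over the mean of days 2, 4 and 6 (horizontal axis) for each detected gene of 6 lists (vertical axis), with bars of 1 standard error. By the fitted values, Bmp4 (7.82, undetected in wildtype) and Tbx3 (3.61, near background in wildtype) lie farthest to the right. Alx4 (-2.94, undetected in KO) and Gli2 (-2.44) lie farthest to the left.

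Markers of other cell types were read beside these lists. Of 8 detected neural and neural crest markers, 3 were higher in KO, Map2 (5.42 ± 0.10), Nes (1.3 ± 0.21) and Ncam1 (1.21 ± 0.18), and Sox2 was lower (-1.58 ± 0.24). The other 4 were not called. Their summed level was 2210 to 3885 on KO arrays and 551 to 1143 on wildtype arrays. Such a sum adds signals that are not logged, so the brightest genes weigh most in it. Here these were Map2 (mean 10.75 in KO and 5.33 in wildtype cells) and Ncam1 (9.83 and 8.62). The defining neural crest gene Sox10 and neural gene Sox1 did not pass the detection filter. Of 5 simple epithelium markers past the filter 1 was higher, Krt7 (0.90 ± 0.18), and 2 were lower. Krt19 and Krt18 were undetected in KO cells, at least 21.6-fold and 1.65-fold lower, and Krt8 and Cdh1 were not called. The summed level of the list was 152 to 294 on KO arrays and 366 to 1328 on wildtype arrays, where Krt19 was the brightest of its genes (mean 9.06). Fibroblast markers were summed to 13422 to 38993 on KO arrays and 20559 to 49197 on wildtype arrays. Of the 13, 7 were lower and 3 higher, with a median of -1.32. The largest differences were Fbln2 (-4.95 ± 0.20), Col1a2 (-3.50 ± 0.15), Cd34 (-3.11 ± 0.14) and Dpt (-2.96 ± 0.25), all lower. Lum was higher by 2.45 ± 0.28. Col1a2, Cd34 and Dpt were near background in KO cells, and Lum in wildtype cells. Of 8 keratinocyte markers past the filter 3 were higher and 3 lower, of 6 cartilage and bone markers 1 and 1, of 4 skeletal muscle markers 1 and 1, of 4 endothelial markers 1 and 0, and of 3 macrophage markers 0 and 1. Among all named genes 22.2% were higher and 20.7% lower. Krt14 and Krt1, counted as higher, were near background and detected on 3 and 4 KO arrays and no wildtype array. Col17a1 and the fibroblast marker Thy1, counted as lower, were detected on 9 and 8 wildtype arrays and no KO array. The part of these markers in the values of the patterning genes was not tested.

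The genes whose signals over the 18 arrays were most like those of each member were found among 13099 genes. Since the arrays fall into 2 genotypes, a high Pearson r can restate a genotype difference. En2 was most like Irx2 (r = 0.995), Wnt10a (0.993) and Bmp4 (0.992), and Msx1 most like Flrt1 (0.989), Nckap5 (0.985) and Sulf2 (0.985). En1 was most like Cyp7b1 (0.985), Birc2 (0.985) and Kifap3 (0.981), Meis1 most like Emb (0.989), Sirpa (0.982) and Aebp1 (0.981), and Meis2 most like Dazap2 (0.974), Wipi1 (0.973) and P3h3 (0.970). Tbx15, with a weak signal, reached 0.881 with Ccm2, and Prrx1 reached 0.843 with Tprgl. With the genotype means taken out, r with the first gene named fell to 0.614 for En2 and 0.610 for Msx1. It was 0.870 for En1, 0.919 for Meis1, 0.948 for Meis2, 0.832 for Tbx15 and 0.849 for Prrx1.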

How the data were processed

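RNA of 18 single-colour Illumina bead arrays was analysed. Per the file headers, the authors deposited a mean bead intensity and a detection p-value for each probe and array, with no sign of background subtraction. They also deposited a log2 matrix, whose values differed by at most 0.005 from quantile-normalized intensity on the log2 scale. On 6 arrays the deposited detection p-values were 2-sided by their values and were converted. How the arrays were scanned is not given in the sources used here.

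Intensities were corrected and quantile-normalized with neqc (offset 16) of limma 3.58.1 in R 4.3.3. The filter kept 26407 of 45121 probes, those detected on 2 or more arrays at a p-value below 0.01. A model with 1 mean for each of the 8 groups was fitted to every probe (lmFit, eBayes with intensity trend), and p-values were adjusted by Benjamini-Hochberg over all probes (2-sided, threshold 0.05), separately for each comparison. Arrays have no counting depth, so their number limits the precision. A single gene symbol was known for 34763 probes, 18 had several and 10340 had none. Where no array of a group detected a probe, the fold is a lower bound.

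The members, lists and tests were chosen with earlier results of these data known. Genes named beyond the members were, for each list, up to 4 with the largest difference, the 3 most like each member, and the 3 neighbours on each side of En2 and Msx1 that have a probe. Some genes were named outside this rule, after the values were seen. These were Foxc1, Gli3, Lum, Thy1, Id2, Id3, Smad7, Bambi, Krt14, Krt1, Cdh1, Sox10, Sox1 and the organiser genes without a detected probe. On simulated data the fit was checked and recovered changes of known size. Alternatives covered background, scaling, filters, probe choice, processing set, replicate block, variance and left-out arrays. Replicate numbers were not treated as pairs.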

Additional observations from a re-analysis of the deposited data

Results flagged for a closer look

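In 32 groups of 4 arrays (16 probes in KO and wildtype cells of day 6), 3 values stood farther from the other 3 than Dixon's critical value allows, and chance alone flags about 1 in 20 groups. All 3 belong to replicate 1 of day 6, the only day 6 array of each genotype in the first processing set. Tbx15 at probe ILMN_2687794 had a signal of 4.98 in KO replicate 1, against 5.59 to 5.65 on the other KO arrays, and of 5.66 in wildtype replicate 1, against 6.05 to 6.09 on the other wildtype arrays. Meis1 at probe ILMN_1218266 had a signal of 10.07 in wildtype replicate 1, against 10.61 to 10.66 on the other 3.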

How the results depend on the processing

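The counts of called probes changed with these settings. With arrays scaled to the same median, the comparison of day 2 with day 0 called 0 probes and that of day 6 with day 2 called 2 (both of En1), against 3 and 0; the median over all probes moved to 0.29 between day 6 and day 2 and to 0.11 for the change of the genotype difference, and 91.3% of called probes were then higher, against 58.2%, while for day 2 against day 0 the share was 63.9%, against 52.2%. With 1 probe per gene, only 5 probes were tested, and 3 were called at day 6, 3 at day 2 and 4 over the mean. At day 4, 6 probes were called with the processing set as a block, 7 with only the first set, and 5 without KO replicates 2 and 4 of day 6, against 3. Between day 2 and day 0, 6 were called with only the first set and 1 without the intensity trend. Leaving out single arrays gave 6 to 7 at day 6, 3 to 5 at day 4, 4 to 6 at day 2, 8 to 8 over the mean, 0 to 4 for day 2 against day 0, 0 to 0 for day 4 against day 2, 0 to 1 for day 6 against day 2, and 0 to 0 for the change of the genotype difference. The cause of these changes was not tested.

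Same-numbered KO and wildtype arrays deviated together by a correlation of 0.00 at day 2, -0.10 at day 4 and 0.11 to 0.55 at day 6. Among the day 6 arrays of the second set alone it was -0.03, 0.14 and -0.02. Since not every pair passed 0.1, the numbers were not taken as pairs. With the replicate block, 5 probes were called at day 4, Meis2 probes ILMN_2850391 and ILMN_2774121 among them (adjusted p = 0.0109 and 0.0325), and 7 at day 6. With the day 4 numbers crossed, a choice made after seeing the data, 6 were called at day 4. No paired analysis was possible for the comparisons of days because the blocks lie within a day.

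The one reversal was Meis1 probe ILMN_1248401 at day 6 with only the first processing set, at 0.070. That value rests on 1 array per genotype, and neither detected the probe. The size for En2 at day 6 was 3.12 with the deposited log2 matrix, which shows no sign of background correction, and 4.16 with an offset of 50. For Msx1 it was 2.03 and 3.00. The differences of the dim Tbx15 probe and Meis2 probe ILMN_2774121 were also smaller without background correction. The reason was not tested. Of 3424 values of single probes under an alternative, 3315 stayed on the same side of the threshold and in the same direction, or within 1 SD.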
